A study of Mus musculus with 4 samples.

Results

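The cytosolic ribosomal proteins are the proteins that, with the ribosomal RNAs, build the 60S and 40S subunits of the ribosome in the cytosol. They were described in bulk RNA-seq of mouse gastric corpus mucosa, where Muc6 +/+ (wild type, 2 libraries) was compared with Muc6 -/- (knockout, 2 libraries) to ask how loss of Muc6, the gel-forming mucin of mucous neck cells, relates to gastric tumour formation. Both genotypes carried no other named allele or agent, and strain, age, sex and the way the allele was made are not given in the labels used here. Whether each library is a different animal is not stated, so every p-value measures only the spread between these libraries, which may be technical. Members were the protein-coding genes whose symbol is Rplp0, Rplp1, Rplp2, Rpsa, or Rpl or Rps followed by digits and optionally a, x, l or y, without the Rps6k kinases and without symbols holding -ps. The rule found 80 genes among 34866 rows, 49 of the 60S and 31 of the 40S subunit. The rule itself uses symbols and no expression value. A total of 77 passed the filter on low counts. The other members were Rpl10l and Rpl39l, testis-type paralogs with 0 counts in every library, and Rpl3l, the striated-muscle paralog of Rpl3, with 3 counts in wild-type library 1 and 0 in the rest.

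Ribosomal protein genes are expressed in every growing cell and their products are needed in equal numbers, so their mRNAs are usually present in balanced amounts. Their mRNAs mostly begin with a C followed by a run of pyrimidines, the 5′ terminal oligopyrimidine (TOP) tract, through which mTOR signalling and the RNA-binding protein Larp1 adjust their translation. Most of these genes also have processed pseudogenes, intronless copies scattered over the genome whose sequence can be the same as that of the mRNA. Reads from a gene and from such a copy can then be assigned to either.

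Total counts ran from 20327745 to 27946423 per library. Muc6 (chr7:141633456-141655319, minus strand, mm10) gave 8542 and 6000 counts under the wild-type label, against 0 and 10 under the knockout label. The 20 most abundant genes took 31.6 and 37.9% of wild-type counts and 17.5 and 27.7% of knockout counts. Marker genes of several cell types differed as well. In CPM, counts scaled to a common library size after TMM, the 7 parietal cell genes together reached 16681 and 16181 in wild type but 826 and 5320 in knockout, and all 7 were lower in both knockout libraries. Chief cell genes together reached 84244 and 178782 against 2452 and 95306 CPM, with Lipf at 0 in every library, so that knockout library 1 stood apart. Most of that sum was Pgc, at 63572 and 145423 CPM in wild type, against 2237 and 79810 in knockout. Pga5, at 101 and 114 against 38.6 and 231 CPM, was lower in knockout library 1 but higher in knockout library 2. The 4 genes of mucous neck cells, Muc6 included, reached 1445 and 1100 against 12370 and 8323 CPM, and the 4 of surface pit cells 108901 and 72212 against 61717 and 48477 CPM. The neck cell sum was thus higher and the pit cell sum lower in both knockout libraries. Most of the neck sum was Tff2 alone, at 1021 and 679 CPM in wild type, against 11700 and 7309 in knockout. Of the 4 neck genes, 2 were higher without overlap (26.3% of all genes) and 1, Muc6, was lower without overlap (23.8%). Of the 4 pit genes, 3 were lower without overlap. Macrophage genes were at 10.1 and 52.2 against 5.91 and 24.7 CPM. The 10 proliferation genes together reached 312 and 243 against 595 and 528 CPM, all 10 higher in both knockout libraries. Squamous forestomach genes were at 0.85 and 0.26 against 129 and 10.03 CPM, with Trp63, Sprr3 and Krtdap at 0 throughout. Antral genes were at 1.53 and 2.76 against 69.1 and 10.2 CPM, but did not move together. Pdx1 was at 0.28 and 0.05 against 59.0 and 2.52 CPM. Cym was at 1.21 and 2.71 against 0.36 and 7.68 CPM, and Gast was at 0 in knockout library 2. Smooth muscle genes were at 249 and 1603 against 354 and 1715 CPM, high in library 2 of both genotypes. A set of 4 Y-linked genes was at 136 and 121 CPM in wild type but at 1.45 and 2.44 CPM in knockout, so that genotype and the sex of the animals cannot be told apart. In bulk tissue, fewer cells of a type and less RNA per cell cannot be told apart either.

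The annotated starts of the ribosomal protein genes were searched for the TOP tract. Of the 80 members, 60 were found in the RefSeq promoter table (GRCm38.p6), with 72 annotated starts. A C at the annotated start followed by at least 4 pyrimidines stood at 18.1% of these starts, against 2.51% of all 32851 promoters in the table. Anywhere in the 40 bases around the start, on the gene's strand, such a run was found in 70.8% of member promoters and in 45.9% of all promoters. The 8 windows below begin 20 bases before the annotated start. They were chosen because the results turn on these genes or because they show how the tract's place varies, and the capitals mark the first tract in each window. They lie at chr2:32961692-32961731 (plus strand) for Rpl12, chr4:86857348-86857387 (minus) for Rps6, chr7:45128726-45128765 (minus) for Rpl13a, chr17:24720043-24720082 (plus) for Rps2, chr5:115559447-115559486 (plus) for Rplp0, chr10:23787190-23787229 (minus) for Rps12, chr3:90213629-90213668 (minus) for Rps27 and chr7:24884572-24884611 (plus) for the first of 3 annotated starts of Rps19.
Rpl12: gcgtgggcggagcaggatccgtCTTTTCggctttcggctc
Rps6: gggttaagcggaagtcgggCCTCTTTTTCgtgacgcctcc
Rpl13a: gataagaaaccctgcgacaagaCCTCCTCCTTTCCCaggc
Rps2: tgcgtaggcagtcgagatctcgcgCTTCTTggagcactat
Rplp0: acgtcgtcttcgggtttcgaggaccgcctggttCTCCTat
Rps12: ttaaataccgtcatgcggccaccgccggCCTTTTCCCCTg
Rps27: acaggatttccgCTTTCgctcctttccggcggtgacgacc
Rps19: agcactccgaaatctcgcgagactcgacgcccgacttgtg
The first tract began 8 bases before the annotated start in Rps27 and 1 base before it in Rps6. In the others with a tract it began up to 13 bases after the start. Rps27 and Rps6 also have a C at the annotated start itself followed by at least 4 pyrimidines. In Rps27 that later run is left in small letters, so the capitals need not mark the tract at the start of the mRNA. The Rps19 window shown holds none, and 1 of the 3 annotated Rps19 starts has a tract in its window. In Rpl5 and Rps24, not shown, the first tract of a window began 20 and 17 bases before a start. That Rps24 window also holds a later tract nearer the start.

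Near-identical copies have rows of their own in the table. The stretches below are parts of the coding sequence of a member and of its most counted copy, written from the GENCODE M21 annotation of mm10, and a capital marks a base at which the pair differs. Rpl3 (chr15:80082500-80082559, minus) and Rpl3-ps1 (chrX:13202598-13202657, plus) differed at 2 of 1209 aligned coding bases, 1 of which is shown. Rpl12 (chr2:32962049-32962108, plus) and Gm10275 (chr10:29699194-29699253, minus) differed at 0 of 495. Rps12 (chr10:23786821-23786880, minus) and Rps12-ps3 (chr19:59322385-59322444, plus) differed at 0 of 384.
Rpl3: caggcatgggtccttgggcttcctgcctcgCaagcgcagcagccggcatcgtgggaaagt
Rpl3-ps1: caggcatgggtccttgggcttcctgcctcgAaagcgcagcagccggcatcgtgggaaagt
Rpl12: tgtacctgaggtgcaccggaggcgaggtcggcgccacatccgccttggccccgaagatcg
Gm10275: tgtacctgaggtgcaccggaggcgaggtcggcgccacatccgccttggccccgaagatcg
Rps12: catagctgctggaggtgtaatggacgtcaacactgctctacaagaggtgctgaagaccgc
Rps12-ps3: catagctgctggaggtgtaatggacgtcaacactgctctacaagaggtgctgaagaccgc
For the last 2 pairs no base in these stretches tells a read of the gene from a read of the copy. All tests are therefore given for each gene's own row and for the sum of that row with its copies.

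Nearly every ribosomal protein gene was modestly higher in the knockout libraries, by a similar amount, and none passed the adjusted threshold. In their own rows, 76 of 77 tested members had a positive log2 fold change (knockout over wild type), where 49.9% of the 14067 genes tested did. For 72 members both knockout libraries lay above both wild-type libraries, which held for 26.3% of all genes. The median member differed by 0.39 on the log2 scale, or 1.31-fold, with the middle 50% of members between 0.33 and 0.45. The median over all genes was 0.00, with the middle 50% between -0.35 and 0.31, and 21.0% of all genes lay at or above the members' median. The median standard error of a member was 0.20. By edgeR's quasi-likelihood test with Benjamini-Hochberg adjustment over all genes, 0 members passed 0.05 (adjusted p from 0.209 to 0.865), against 0.0% of all genes. At an unadjusted p under 0.05 stood 4 members (Rpl12, Rpl3, Rps19 and Rps27), all higher, against 15.9% of all genes in either direction and 9.22% that were higher. A single member, Rps2, was lower without overlap, against 23.8% of all genes. DESeq2 called 3 members, Rpl3 (adjusted p = 1.07e-08), Rpl12 (0.0245) and Rps19 (0.0284), all higher, against 7.57% of 13794 genes in either direction and 4.14% that were higher.

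Summed with their copies, all 77 tested members were higher in knockout in the fit, and 75 of them did not overlap between genotypes, against 26.3% of all genes in that fit. No sum was lower without overlap, against 23.7% of all genes. The median stayed at 0.39 and the members drew together, from an SD over members of 0.23 in their own rows to 0.12 in the sums. The range narrowed from -0.59 to 1.59 in own rows to 0.08 to 0.82 in the sums. By edgeR's quasi-likelihood test the adjusted p of the sums ran from 0.250 to 0.866, and 3 sums (Rpl12, Rps19 and Rplp0) had an unadjusted p under 0.05, all higher, against 15.9% of all genes in either direction and 9.22% that were higher. That count of sums depends on the setting. It was 42 with upper-quartile factors, 74 with total counts alone and 23 with library sizes without the 20 most abundant genes. By DESeq2 it was 27, and with a replicate block 53. The share of all genes under that p in these settings is not given here, so these counts cannot be read against it. With total counts alone the median of all genes was itself at 0.29. Both subunits showed the difference. All 46 tested 60S members were higher, 45 without overlap, with a median of 0.37. All 31 40S members were higher, 30 without overlap, with a median of 0.41.

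**Figure D1:**
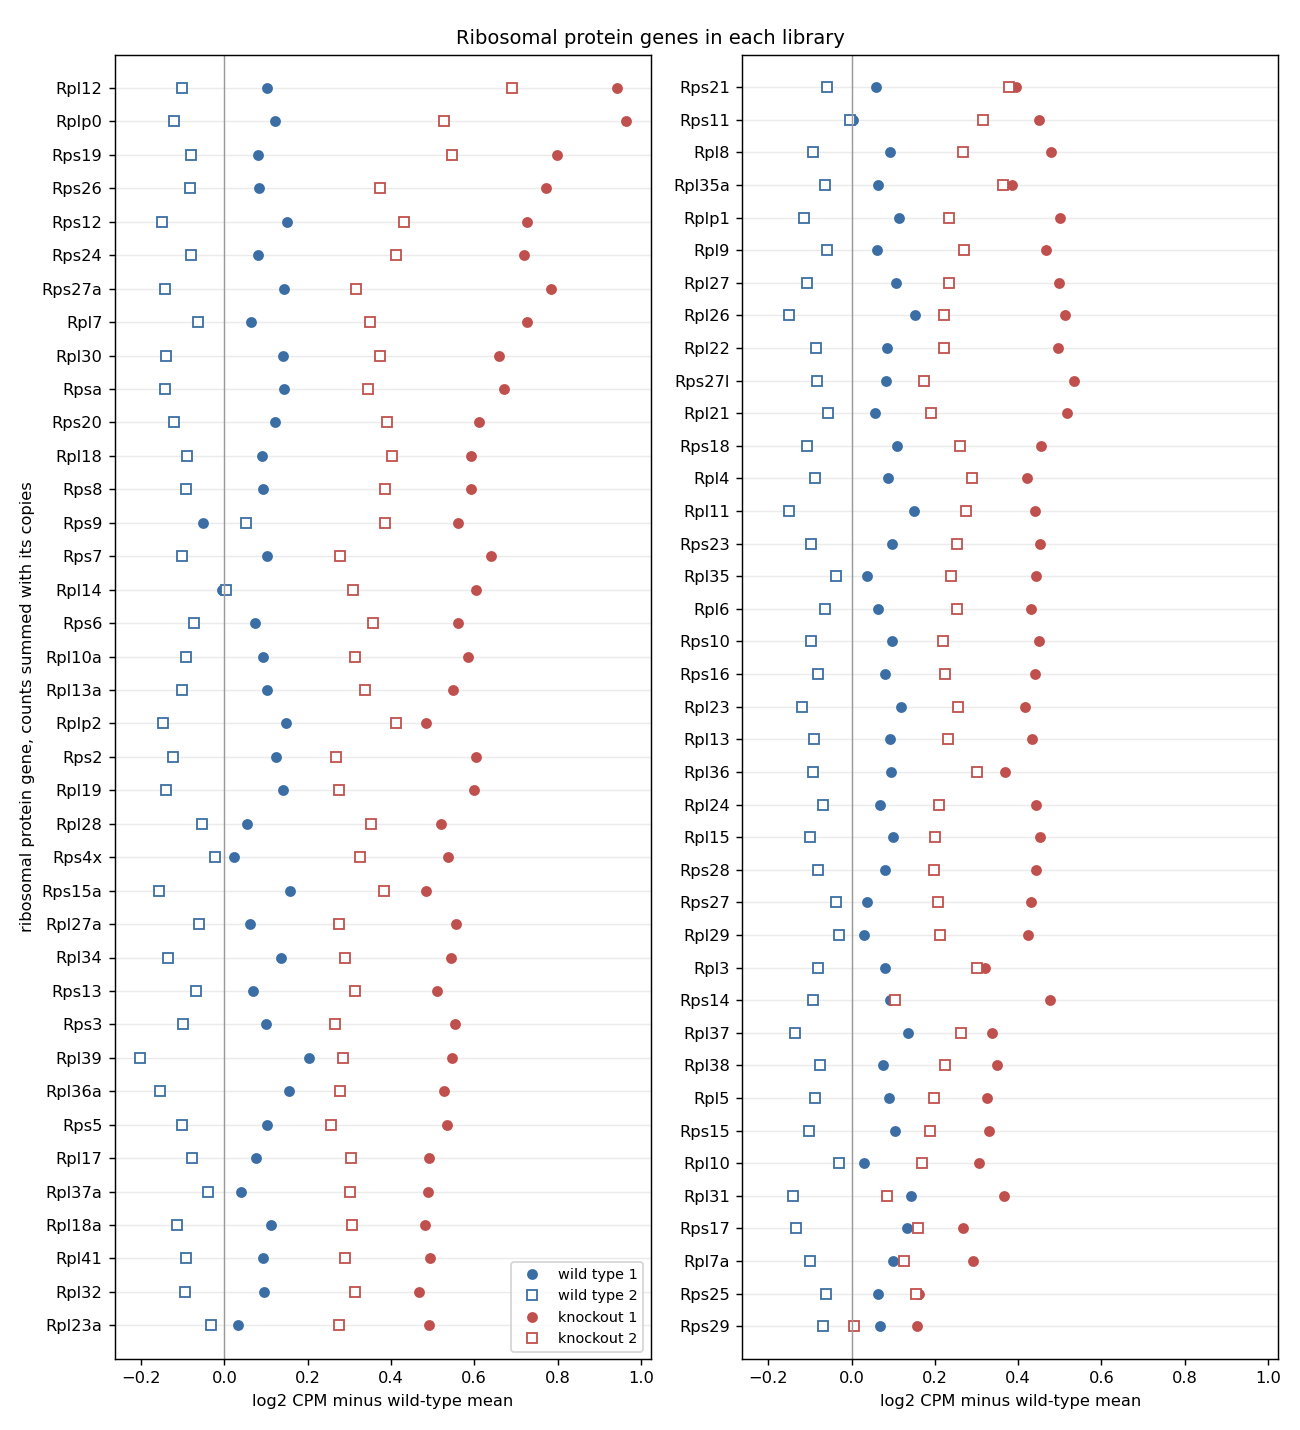
Each line is 1 of the 77 tested ribosomal protein genes, with its counts summed with its copies, and each point is 1 library (blue wild type, red knockout, filled library 1, open library 2). The horizontal axis is the log2 CPM minus the gene's wild-type mean, and knockout points lie to the right of both wild-type points for 75 genes.

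The size of the difference was not the same in both knockout libraries. Relative to the wild-type mean, the median summed member stood at 0.49 in knockout library 1 and at 0.28 in knockout library 2, on the log2 scale. All 77 were lower in knockout library 2 than in knockout library 1, by a median of 0.21 (log2 difference -0.21). The median of all genes differed by 0.01 there, and the share of all genes that were lower is not given here. Among the wild-type libraries, the median summed member differed by -0.18 (library 2 minus library 1), where the median of all genes differed by -0.08. The members' own gap was thus about as wide as in the knockout, but in wild type all genes shared part of it. Library 2 of both genotypes was also the one with the higher smooth muscle sum, whose part in this gap was not tested. Without knockout library 1, which had the lowest parietal and chief cell sums, 71 of 77 own rows were higher (44.7% of all genes in that fit) and the median was 0.24. Without knockout library 2, 76 own rows were higher (45.2% of all genes) and the median was 0.44. The median of all genes in these own-row fits was -0.06 without knockout library 1 and -0.07 without knockout library 2. In the sums without knockout library 2, all 77 were higher, also with a median of 0.44. The proliferation genes stood above wild type in both knockout libraries, as did the ribosomal proteins, and the part of cell composition in the difference was not tested.

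The 80 members held 1.92 and 1.76% of all wild-type counts but 3.19 and 2.76% of all knockout counts. The knockout libraries both lay above the wild-type libraries, with a ratio of means of 1.62. This share has no scaling in it, and its denominator holds the 20 most abundant genes, which took less of each knockout library. With the 20 most abundant genes taken out of the total, the shares were 2.81 and 2.83% in wild type, against 3.87 and 3.82% in knockout, a ratio of 1.36. The libraries of a genotype were then closer together and the genotypes still did not overlap. With 2 libraries against 2, an exact two-sided permutation test cannot give a p below 0.33, so no test of the share is given.

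**Figure D2:**
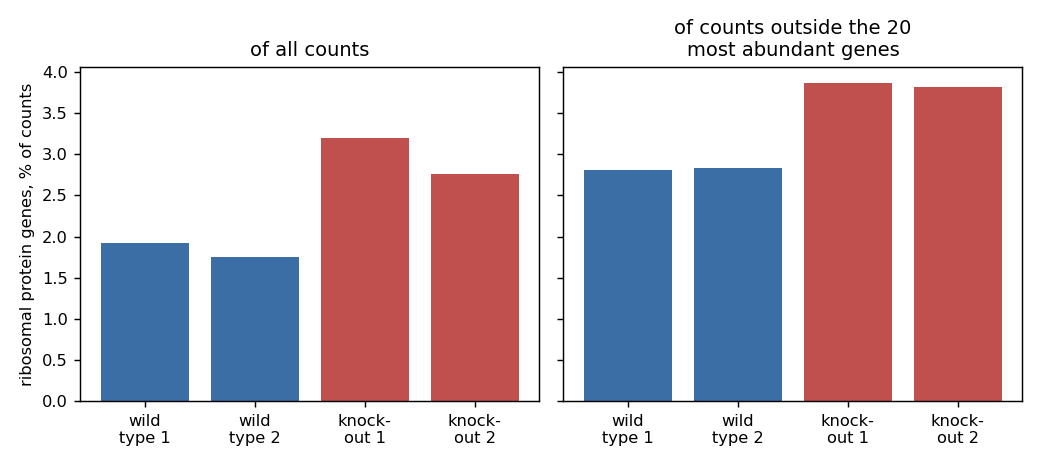
Bars give the percentage of each library's counts that fell in the 80 ribosomal protein genes, over all counts (left) and over the counts outside the 20 most abundant genes (right). Knockout bars stand at 3.19 and 2.76% on the left and at 3.87 and 3.82% on the right, above the wild-type bars in both panels.

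Among the 60S proteins, Rplp0 and Rpl12 of the stalk had the largest differences in the sums, and Rplp1 and Rplp2 lay near the median member. The stalk is the flexible arm that recruits and activates elongation factors, with Rplp0 at its base, Rpl12 beside it, and Rplp1 and Rplp2 as its tips. Rplp0 (chr5:115559467-115563727) was at 818 and 691 CPM in wild type, against 1469 and 1084 CPM in knockout, without overlap, a log2 fold change of 0.76 ± 0.28 (SE). Rpl12 summed with its copies was at 446 and 387 against 799 and 671 CPM, also without overlap, at 0.82 ± 0.23. By edgeR's quasi-likelihood test the adjusted p of their sums was 0.313 and 0.250. Rplp1 differed by less, from 459 and 392 to 600 and 499 CPM (0.37 ± 0.23), close to the median member. Rplp2, whose gene lies 181871 bp from Muc6 on chromosome 7, went from 253 and 206 to 320 and 304 CPM (0.44 ± 0.20). The gap between tip and base proteins was not tested.

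Rpl5 and Rpl11 form, with the 5S ribosomal RNA, the particle that binds Mdm2 when ribosome assembly is disturbed. Rpl11 was at 277 and 226 CPM in wild type, against 337 and 308 in knockout (0.36 ± 0.20), without overlap. Rpl5 in its own row was at 30.4 and 27.1 against 35.1 and 28.1 CPM, which overlap, and its row held only 6.03 and 6.10% (wild type) and 5.92 and 5.18% (knockout) of the counts of the gene and its copies. With the copies, Rpl5 stood at 503 and 445 against 593 and 543 CPM (0.26 ± 0.21), no longer overlapping. The counts of both genes were thus higher in each knockout library once copies were included. Rpl13a, which also takes part in translational silencing of inflammatory mRNAs, went from 499 and 433 to 679 and 587 CPM (0.44 ± 0.22). Rpl10, which joins the large subunit late and lines the peptidyl-tRNA site, was at 656 and 630 against 795 and 723 CPM with its copies (0.24 ± 0.21), among the lower members. Rpl39, at the peptide exit tunnel and X-linked, was at 153 and 115 against 194 and 162 CPM (0.41 ± 0.23). In their own rows, where Rpl10 differed by 0.42, the 4 X-linked members had a median of 0.43, near the 0.39 of all tested own rows.

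The counts of the genes of the named 40S proteins were higher as well. Rpsa, a late-joining protein also known as the laminin receptor, was at 700 and 575 CPM in wild type, against 1011 and 805 CPM in knockout (0.51 ± 0.25). Rps6, the phosphorylation target of the S6 kinases, was at 397 and 338 against 570 and 462 CPM (0.49 ± 0.23). Rps3, which lines the mRNA entry channel, was at 472 and 411 against 646 and 529 CPM (0.41 ± 0.23). None of these overlapped between genotypes. Rps27a, made as a fusion with ubiquitin, was at 346 and 279 against 541 and 388 CPM (0.57 ± 0.27). Rps4x, X-linked, was at 440 and 427 against 629 and 544 CPM (0.43 ± 0.21). Rps19, the gene most often mutated in Diamond-Blackfan anaemia and 1 of those without a copy, was at 225 and 201 against 370 and 311 CPM (0.68 ± 0.20). By edgeR's quasi-likelihood test its adjusted p was 0.260.

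At the lower end stood Rps29 and Rps25. Rps29, a small zinc-binding protein near the mRNA channel, was at 255 and 233 CPM in wild type, against 273 and 244 in knockout (0.08 ± 0.18), and its libraries overlapped. Rps25, known for its part in internal initiation by viral RNAs, was at 235 and 216 against 252 and 251 CPM (0.16 ± 0.17), without overlap. Neither difference exceeded its standard error. Rps27l, a p53-induced paralog of Rps27, was at 74.5 and 66.4 against 102 and 79.3 CPM (0.36 ± 0.19), near the median member and without a copy to share reads with.

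Rps2, Rpl3 and Rps27 stood far from the other members in their own rows but not in the sums, and Rps12 went from the lower end of the own rows to the upper end of the sums. Near-identical copies, defined as other loci with at least 90% identity over at least 80% of a member's coding sequence, numbered 901 for 71 members, and 396 of them had any count. They held 14.9 and 15.0% of the counts of genes and copies in wild type, against 15.6 and 15.7% in knockout. For 10 members (Rpl10, Rpl10a, Rpl12, Rpl27, Rpl27a, Rpl28, Rpl5, Rps12, Rps23 and Rps27) the member's own row held the smaller part. These sums were added after the data had been seen.

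Rps2, a 40S protein at the mRNA entry channel, was the only member lower in knockout in its own row, with 18725 and 12197 counts in wild type, against 11228 and 10144 in knockout (755 and 635 against 503 and 419 CPM, -0.59 ± 0.23). Its intronless copy Rps2-ps10 (chr18:61259008-61259972, minus), 98.0% identical over the coding sequence, had 30 and 38 counts in wild type, against 12326 and 10110 in knockout. In knockout the copy thus held about as many counts as the gene, and in wild type next to none. Rps2 and all its copies together stood at 758 and 638 against 1058 and 837 CPM (0.44 ± 0.25), higher and without overlap, like the other members.

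Rpl3, a core 60S protein next to the peptidyl transferase centre, showed the opposite exchange. It had 7566 and 5370 counts in wild type, against 13722 and 14666 in knockout (305 and 280 against 615 and 605 CPM, 1.06 ± 0.19). The copy Rpl3-ps1 (chrX:13202571-13203780, plus) had 5350 and 3569 counts in wild type, against 4 and 27 in knockout. The own row held 58.6 and 60.03% of its family's counts in wild type but 99.9 and 99.8% in knockout. Summed, Rpl3 stood at 521 and 466 against 615 and 607 CPM (0.31 ± 0.20), slightly under the median member, and by edgeR's quasi-likelihood test its adjusted p went from 0.210 in the own row to 0.521 in the sum. DESeq2 did not call Rpl3 in the sums, where its 2 called members were Rpl12 and Rps19. What set the counts of these copies apart between genotypes was not tested.

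**Figure D3:**
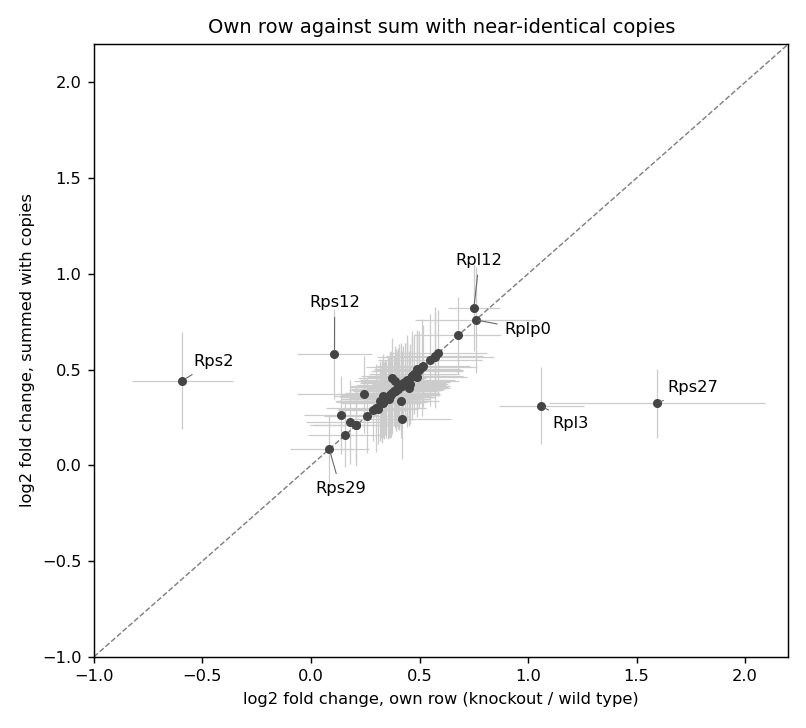
Each point is 1 of the 77 tested members, with the log2 fold change of its own row on the horizontal axis and that of its sum with copies on the vertical axis (grey bars, standard errors), and the dashed line marks equal values. Rps2, Rps12, Rpl3 and Rps27 leave the line, and their sums lie at 0.44, 0.58, 0.31 and 0.32.

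For Rps12 and Rps27, few of the counts were in the own row. Rps12, a 40S protein of the beak, had 247 and 193 counts in wild type, against 252 and 249 in knockout (0.11 ± 0.17), while its copy Rps12-ps3 had 8797 and 5496 against 11895 and 10502. The sum was at 365 and 297 against 544 and 444 CPM (0.58 ± 0.23), among the larger differences. Rps27, a zinc-finger 40S protein, had 27 and 41 counts against 109 and 117 (1.59 ± 0.50), while Rps27rt, an annotated protein-coding retrocopy, had 4737 and 3466 against 5521 and 5119. Its sum was at 192 and 183 against 252 and 216 CPM (0.32 ± 0.18), under the median. Rpl12 had 470 and 360 counts against 718 and 757 in its own row (0.75 ± 0.12) and 10601 and 7073 against 17093 and 15496 in Gm10275. There the row and the sum gave nearly the same difference.

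**Figure D4:**
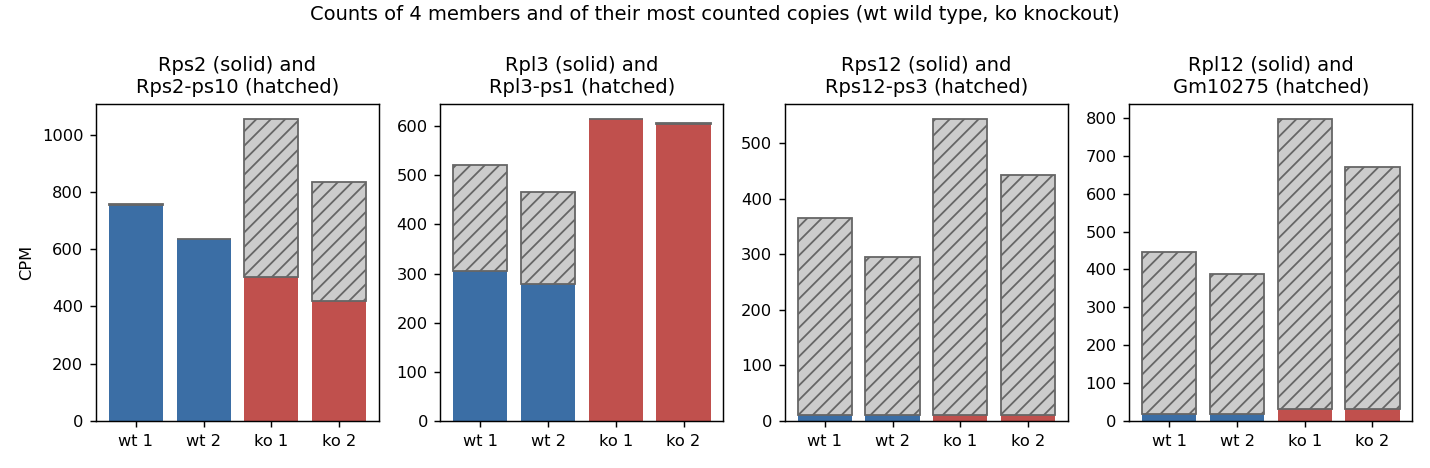
Stacked bars give CPM of a member (solid) and of its most counted copy (hatched) in each library, with a scale of its own in each panel. Rps2-ps10 is visible in the knockout bars and Rpl3-ps1 in the wild-type bars, while Rps12-ps3 and Gm10275 hold most of the counts in all 4 libraries.

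Members were also measured against the median member of the same library, with copies summed. The largest upward departures (knockout minus wild type, log2) were Rpl12 at 0.45, Rplp0 at 0.38 and Rps19 at 0.31. The largest downward departures were Rps29 at -0.28, Rps25 at -0.21 and Rpl7a at -0.16. In each of these 6 the genotypes did not overlap on this scale, which removes whatever all members share in a library. Of the 77 members, 22 were higher and 8 lower without overlap on it. The 6 are the extremes of that same difference, so their lack of overlap is no added evidence. These 6 were named after their values had been seen, and no test was made of the departures.

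Levels of different genes were compared per length. In CPM per kb of exon, own rows only, Rplp1 was highest in wild type (921 and 786, against 1203 and 1001 in knockout), then Rplp0 (493 and 417, against 885 and 654) and Rps15 (483 and 418, against 565 and 512). Rplp0 and Rps15 were within the spread of the libraries in wild type. In CPM per kb of coding sequence, copies included, Rpl41, which encodes 1 of the shortest known proteins, was highest at 3500 and 3078 in wild type, against 4619 and 4010 in knockout. Rps27l was the lowest tested member on that scale, at 236 and 211 against 323 and 252.

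The ribosomal proteins outside the rule that are given here had positive log2 fold changes too. Rack1, the scaffold on the head of the 40S subunit, was at 590 and 479 CPM in wild type, against 816 and 673 in knockout (0.48 ± 0.24). Rps3a1, left out by the letter of the rule, was at 470 and 448 against 622 and 547 CPM (0.35 ± 0.20), without overlap. Fau, a fusion of a ubiquitin-like domain with a ribosomal protein, differed by 0.23 ± 0.16. The paralogs Rpl22l1, Rpl7l1 and Rpl36al differed by 0.41 ± 0.22, 0.12 ± 0.13 and 0.05 ± 0.18. None passed the adjusted threshold of edgeR's quasi-likelihood test.

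The genes that make or use ribosomes did not all follow. Their counts without overlap stand beside 26.3% of all genes higher and 23.8% lower. Scaling by total counts alone moved the median of all genes to 0.29, and the medians below are read against all genes. Of 18 tested elongation factors and other TOP mRNAs, 18 were higher, 16 without overlap, with a median of 0.30 (0.13 without knockout library 1). Npm1, a nucleolar chaperone, was at 169 and 159 against 256 and 241 CPM (0.60 ± 0.17), and Hnrnpa1, a splicing regulator, differed by 0.50 ± 0.15. Of 40 ribosome biogenesis genes, 30 were higher, 20 without overlap and 4 lower without overlap, with a median of 0.13. Without knockout library 1, 22 of the 40 were higher, with a median of 0.046. Nhp2 and Gar1, partners in the pseudouridylation particle, differed by 0.49 ± 0.13 and 0.59 ± 0.17. The 25 genes listed as initiation factors stood close to those shares of all genes, with 7 higher and 6 lower without overlap. Of the 25, 17 were higher, with a median of 0.12, which was -0.11 without knockout library 1. The initiation factor genes Eif4b, Eif3e, Eif3f, Eif3h, Eif3k and Eif3l were counted in the TOP list instead. The contrast between the 2 lists therefore depends in part on where these genes were placed. Eif2s3x, a subunit of the initiator tRNA carrier, differed by 0.68 ± 0.17 and Eif3c, a core subunit of eIF3, by -0.64 ± 0.22. No gene of these lists passed the adjusted threshold of edgeR's quasi-likelihood test.

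RNA polymerase I genes were split, 7 of 14 higher (12 with total counts alone), with a median of 0.03. Polr1a, the catalytic subunit, differed by -0.31 ± 0.13 and the initiation factor subunit Taf1d by 0.41 ± 0.24. The 78 ribosomal proteins of the mitochondrion, which share function but not compartment with the members, were also split, with 38 higher (73 with total counts alone) and a median of -0.01. Among them Mrpl9 differed by -0.42 ± 0.13 and Mrpl45 by 0.46 ± 0.15. All 13 protein-coding genes of the mitochondrial genome were lower without overlap (median -1.09), with mt-Nd3 at 674 and 704 CPM in wild type, against 100 and 91.9 in knockout, and mt-Co2 at 4374 and 6532 against 1452 and 1272. Parietal cells, whose markers were lower too, are rich in mitochondria, and their part in this difference was not tested.

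Regulators of ribosomal protein synthesis did not move as 1 group, with 11 of 15 higher, 5 without overlap and 3 lower without overlap (median 0.09). Mtor itself was at 102 and 93.0 CPM in wild type, against 41.2 and 58.2 in knockout (-0.97 ± 0.22), without overlap. Larp4, which binds poly(A) tails, was at 99.5 and 92.9 against 74.5 and 70.5 CPM (-0.41 ± 0.14). These 2 were lower in both knockout libraries. Mdm2, the target of the Rpl5 and Rpl11 particle, was at 38.8 and 33.6 against 63.2 and 44.0 CPM (0.57 ± 0.23). Myc was at 28.8 and 22.2 against 29.4 and 30.8 CPM (0.24 ± 0.18), and both genes were higher in each knockout library. By edgeR's quasi-likelihood test none of these 4 passed the adjusted threshold.

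**Figure D5:**
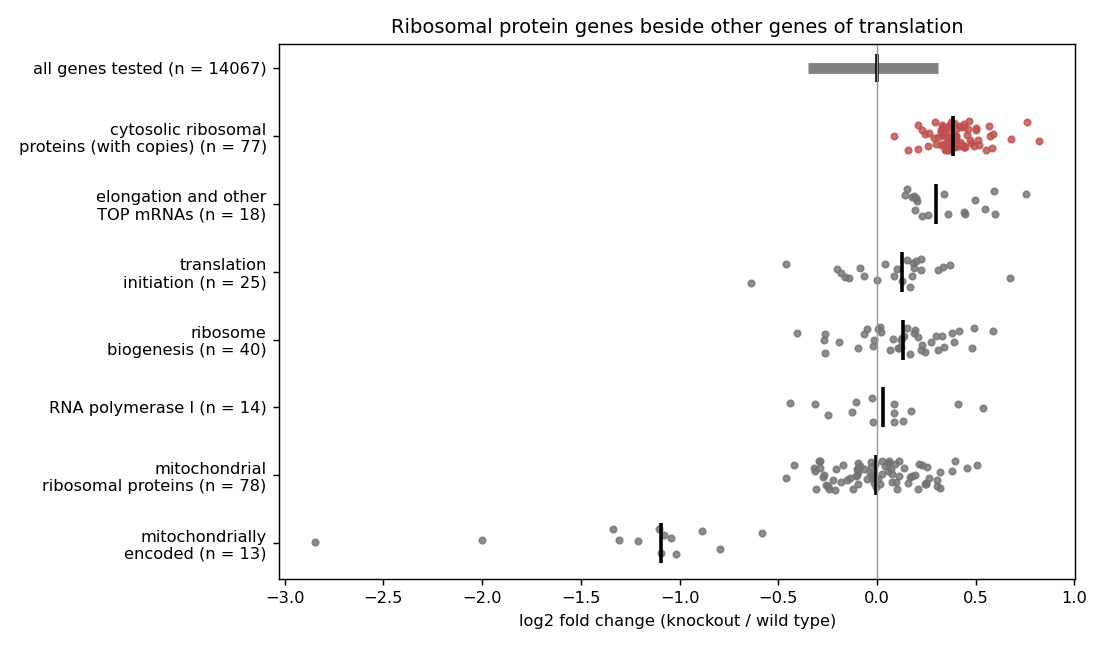
Points are the log2 fold changes (knockout over wild type) of the tested genes in each list and black bars their medians, with the grey band giving the middle 50% of all 14067 genes. Ribosomal proteins are shown as sums with their copies and the other lists as own rows. These sums (median 0.39) and the elongation factors with other TOP mRNAs (0.30) lie to the right of 0, where the own row of Rps2 would lie at -0.59, mitochondrial ribosomal proteins (-0.01) lie on both sides and mitochondrially encoded genes (-1.09) to the left.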

How the data were processed

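RNA was extracted from gastric corpus mucosa with a column kit and made into stranded poly(A) libraries, per the labels' protocols. The values are the estimated counts per gene that the authors deposited, since 35.0% of nonzero values are not whole. They were made on mm10, per the submitters' processing notes. No aligner, counter, annotation or strand setting is named in the sources used. Counts were rounded. Of 34866 rows, 34652 matched GENCODE M21. Libraries of a genotype differed by more than sampling noise (chi-square per degree of freedom 139 and 272) and were kept as 2 replicates.

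Genes were filtered with filterByExpr, scaled by TMM and tested with edgeR 4.0.16 (robust quasi-likelihood, R 4.3.3), knockout against wild type, with Benjamini-Hochberg adjustment over 14067 genes and a threshold of 0.05. On simulated data of 14067 genes (3 draws), that comparison recovered 3.0% of genes changed 2-fold and 57.7% of those changed 4-fold. Copies were found with blastn 2.17.0 among annotated transcripts. Protein-coding loci counted as copies only with -ps in the symbol or with transcripts under 3 coding lengths. Alternatives were DESeq2 1.42.0, limma 3.58.1 voom, other scalings and filters, sums with copies, a replicate block, and each library left out.

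Genes named are Muc6, the 5 members with the largest, the 5 with the smallest log2 fold change and the 5 with the smallest p, members of known role, paralogs and their parents, members not tested, ribosomal proteins under other symbols, the 2 smallest p of each other list, Myc and Mdm2. The members and all lists were chosen with earlier results of these data known, so their direction is not independent evidence. Protein sequences were not used here.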

Additional observations from a re-analysis of the deposited data

How the results depend on the processing

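Scaling by total counts only moved the median member to 0.68 and the median of all genes to 0.29. A change of scaling shifts all genes by nearly the same amount. The gap of 0.39 between members and all genes could therefore hardly change, and its constancy is no check. Leaving out 1 library moved the members' median between 0.24 (without knockout library 1) and 0.47, the count of members higher between 71 and 76, and the difference in their share of counts between 0.92 and 1.35 percentage points (1.14 with all). Members past the threshold numbered 0 by edgeR and 3 by DESeq2. All genes past it numbered 0 by edgeR (2236 at an unadjusted p under 0.05), 9 without a filter, 1044 by DESeq2, and 0 to 851 with 1 library left out (9 without knockout library 1, 851 without knockout library 2, 0 when either wild-type library was left out), where a lone library is assumed to vary like the pair. Without knockout library 1, 5 own rows turned lower, and over the libraries left out Rpl27 ran from -0.2492 to 0.5311, Rpl31 from -0.0115 to 0.3294, Rpl5 from -0.0786 to 0.2375, Rps12 from -0.0094 to 0.1208 and Rps29 from -0.0429 to 0.1573. Rps2 turned higher when summed with its -ps rows (0.44) or all copies (0.44). Rpl3, Rpl12 and Rps19 passed by DESeq2 (1.04, 0.73 and 0.66). Of 1463 values of single members over 19 settings, 1453 kept direction and side of the threshold. With the number in the titles as a replicate block, 0 members passed, the median was 0.39 and 76 were higher. Same-numbered libraries deviated together (r = 0.52), but share only a number. With 2 libraries per genotype both pairs give the same r by construction, so this is a single value. In the sums without knockout library 1, 76 of 77 members were higher, with a median of 0.23. In simulation, 3.0% of 2-fold differences, larger than those of all summed members, were recovered among 14067 genes. The genes changed there were drawn at random above a low expression cut-off, so this is not the rate for the members.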

Other observations

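Rps4l, a row of pseudogene type related to Rps4x and outside the rule, went against the family, at 30.1 and 21.3 CPM in wild type, against 13.9 and 12.5 CPM in knockout (-0.96 ± 0.22, edgeR adjusted p = 0.229). Other copies were also counted in 1 genotype only. Rps13-ps1 (chr8:87047689-87048226) had 122 and 28 counts in wild type, against 0 and 0 in knockout. Gm4294, a copy of Rpl15 (chr12:12023045-12023658), had 0 and 0 counts in wild type, against 104 and 214 in knockout. These copies were named after their values had been seen.

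Eif2s3x, the X-linked initiation factor gene that was higher in knockout, has a Y-linked partner, Eif2s3y, which had 1038 and 671 counts in wild type, against 0 and 6 in knockout. In their own rows, the 14 members on chromosome 7, where Muc6 lies, had a median log2 fold change of 0.42, next to 0.39 for all tested members.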
